A study of Homo sapiens with 6 samples.

Results

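The type I interferon pathway was examined through 52 named genes, from the receptor chains and their kinases to the genes that interferon switches on. The 52 symbols were matched by NCBI Gene number to rows of a table that lists 29806 gene numbers, a match that used no measured value. They were measured by sequencing of polyA RNA from LNCaP, a human prostate cancer cell line of luminal type that grows in response to androgen. The comparison asked how these genes differ when PACT, the protein encoded by *PRKRA*, is removed. Wild type LNCaP parental cells (n = 3 dishes) were compared with LNCaP cells carrying a CRISPR knockout of PACT (PACT KO, n = 3 dishes). Both were grown in RPMI-1640 medium with fetal bovine serum and collected 48 h after plating, at about 80% confluency. No interferon, double-stranded RNA or virus is named in the treatment of either group.

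The PACT KO dishes all hold 1 clone, whereas the parental cells are not described as a clone, and no clone that received the vector without a knockout is among the 6 libraries. Effects of the knockout and properties of that clone cannot be told apart, and the p-values below measure the spread between dishes. In bulk RNA, a lower level can also mean fewer expressing cells or less RNA per cell, and these cannot be told apart either. The libraries held between 19930060 and 24940838 reads on genes. *PRKRA* had 882, 809 and 866 reads in the parental dishes and 291, 331 and 243 in the PACT KO dishes. The groups did not overlap, and the log2 fold change was -1.57 ± 0.07 (SE; FDR 8.83e-21, edgeR's quasi-likelihood test). An exact permutation test of its level, 2-sided, gave p = 0.1, the smallest that 3 dishes against 3 allow. All 10 markers of luminal prostate epithelium were expressed well enough to be tested, with a summed level of 3818 to 3849 CPM (reads of a gene relative to the total of its library, after scaling between libraries) in parental and 3853 to 3903 CPM in PACT KO dishes, and 4 of them fell and 2 rose in the test described below. Of 6 leukocyte markers, 5 had at most 3 reads in every dish and only *CD68* was read above that, and the list summed to 2.22 to 2.46 CPM in parental and 1.62 to 1.83 CPM in PACT KO dishes. Of 6 markers of fibroblasts and endothelium, *PECAM1* had 0 reads in all dishes and *DCN* at most 6, while 4 were tested. Of these, *COL3A1* had 124 to 159 reads in a dish and *PDGFRB* 8 to 22, and neither passed the test. *COL1A1* rose, at a log2 fold change of 0.52, and *VWF* fell, at -0.61. The list summed to 60.2 to 63.0 CPM in parental and 61.0 to 67.5 CPM in PACT KO dishes. The 3 markers of basal epithelium had at most 4 reads in a dish. The part of these markers in the results was not tested.

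Type I interferon binds a receptor of the chains IFNAR1 and IFNAR2, whose kinases JAK1 and TYK2 then phosphorylate STAT factors, STAT2 among them. STAT2 and IRF9 are parts of the factor ISGF3, which binds a short DNA element, the interferon-stimulated response element (ISRE), in front of the genes known as interferon-stimulated genes. Their products block viruses at entry, copying of RNA, translation and release. PACT binds double-stranded RNA and activates the kinase PKR, and it has also been reported to assist the RNA sensor RIG-I. LNCaP cells have been described as poorly responsive to interferon, with little JAK1.

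The letters of an ISRE were found near the start of many of these genes, and the windows below show them for genes to which the results return. The letters searched were GAAA, any 2 bases and GAAA again, or TTTC, any 2 bases and TTTC for the other strand. The promoters were those of RefSeq on GRCh38.p14, from 250 bases before to 50 bases after a transcription start. By NCBI Gene number, 42 of the 52 members matched an entry. Coordinates are given for that build, sequences are written 5′ to 3′ along the strand of the gene, and capitals mark the ISRE letters. *ISG15* and *IFIT1* are shown as typical targets of ISGF3, and *DDX60*, *IFITM3* and *IFI44* as interferon targets that rose in the test described below. *PARP14* and *PLSCR1* are shown because they had the largest rise and the largest fall, and *PARP9* because it shares its site with *DTX3L*. Most of these windows thus belong to genes that passed that test, whereas 15 of the 23 tested members with ISRE letters did not.
ISG15, chr1:1013364-1013419, plus strand: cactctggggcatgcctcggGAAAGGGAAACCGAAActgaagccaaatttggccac
IFIT1, chr10:89392487-89392549, plus strand: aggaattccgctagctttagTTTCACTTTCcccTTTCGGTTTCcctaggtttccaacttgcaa
DDX60, chr4:168318776-168318860, minus strand: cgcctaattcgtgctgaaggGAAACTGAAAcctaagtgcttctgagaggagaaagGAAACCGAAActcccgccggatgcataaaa
IFITM3, chr11:320866-320932, minus strand: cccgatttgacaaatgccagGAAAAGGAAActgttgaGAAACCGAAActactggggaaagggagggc
IFI44, chr1:78649751-78649788, plus strand: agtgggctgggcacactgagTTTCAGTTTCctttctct
PARP14, chr3:122680790-122680838, plus strand: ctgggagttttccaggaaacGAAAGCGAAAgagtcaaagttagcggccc
PLSCR1, chr3:146544657-146544706, minus strand: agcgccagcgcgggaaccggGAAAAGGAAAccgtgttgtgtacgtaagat
PARP9, chr3:122564322-122564351, minus strand: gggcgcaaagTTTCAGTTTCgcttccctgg

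The *ISG15* window holds 2 overlapping copies that share the middle letters, and the *IFIT1*, *DDX60* and *IFITM3* windows hold 2 separate copies each. *PARP14*, *PLSCR1*, *IFI44* and *PARP9* show 1 copy in the windows printed. ISRE letters were found in 32 of the 60 promoters of the members (53.3%), and in at least 1 promoter of 27 of the 42 members matched (64.3%). Over all 35116 promoters of the table the share was 3.57%, and over the promoters of the genes tested it was 2.77%. A second element, the gamma-activated site (GAS) of the response to interferon gamma, was searched as TTC, any 3 bases and GAA, which reads the same on both strands. It was found in 25% of the members' promoters and in 7.66% of all promoters. The 2 motifs can share bases, and such overlaps were not removed. Counted once for each promoter, 46 of 50 ISRE matches lay before the start, the farthest at 196 bases. The median position of all 50 matches was 83.5 bases before the start. A match describes the letters alone and says nothing about binding in these cells.

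**Figure D1:**
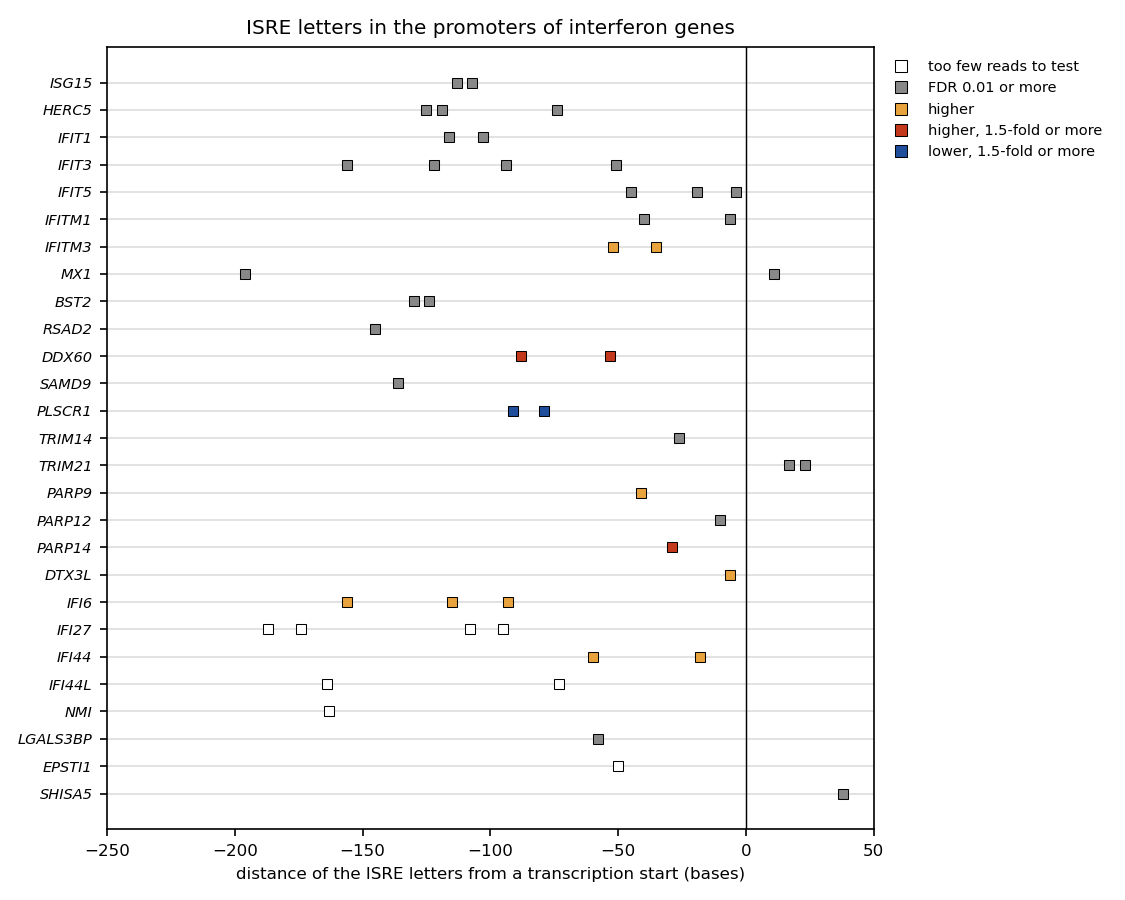
Position of ISRE letters in the promoters of the 27 interferon genes that hold them, as the distance in bases of the first letter from a RefSeq transcription start (0, vertical line). Each square is 1 match in 1 promoter, coloured by the result of PACT KO against LNCaP parental, and 46 of the 50 squares lie before the start.

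Most of the members were expressed in LNCaP cells, although no interferon is named in their treatment. A member was counted as detected when every dish of a group had over 3 reads, and 46 of the 52 were. *MX2*, *SAMD9L* and *XAF1* had at most 3 reads in each of the 6 dishes, with a highest count of 3, 1 and 1 respectively. *IFI44L*, *NMI* and *EPSTI1* lay between these limits, with highest counts of 5, 7 and 10. Levels of different genes are compared here per kilobase of exon (CPM per kb, GENCODE 29 exons). The highest in parental cells was *SHISA5*, an endoplasmic reticulum protein, at 83.8 ± 2.09 CPM per kb (SD, n = 3). *IFITM3*, which hinders the fusion of viruses with endosomes, followed at 43.0 ± 1.21, and then *STAT2* at 33.1 ± 1.19 and *ISG15* at 32.2 ± 1.14. The level per kb of *STAT2* and that of *ISG15* differed by less than their spread. *JAK1* stood far lower, at 1.97 ± 0.0553 CPM per kb and place 28 of 52, below *TYK2* at 19.1 ± 0.493 and *IFNAR1* at 15.1 ± 0.541.

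Of the 52 members, 44 had enough reads to be tested, and 15 of them differed between PACT KO and parental cells at an FDR under 0.01. Levels of 13 members rose and those of 2 fell. Over all 14462 genes tested, 34.2% passed this threshold, 15.3% higher and 18.8% lower. Genes higher in PACT KO made up 44.8% of these calls, but 54.4% with libraries scaled by their totals alone and 53.0% with upper-quartile scaling, so which direction was the more frequent over all genes depends on the scaling. The 15 calls among the members were the same in all 3 scalings. Among the members the shares were 29.5% higher and 4.55% lower. A call of DEG also required an absolute fold change of at least 1.5, and *PARP14*, *DDX60* and *IFIT2* rose while *PARP10* and *PLSCR1* fell by this measure. In a stricter test of whether the change itself exceeds 1.5-fold (glmTreat), *PARP14*, *PARP10* and *PLSCR1* passed and *DDX60* and *IFIT2* did not. DEGs made up 5.72% of all genes tested, 3.07% higher and 2.65% lower. The fitted log2 fold change lay above 0 in 29 members and below 0 in 15, with a median of 0.12 against 0.00044 for all genes tested. Without PACT KO replicate 2 this median was 0.18 and without PACT KO replicate 3 it was 0.0803. All 3 PACT KO dishes lay above all parental dishes in 20 members and below them in 4. Groups that did not overlap were found in 25.1% of all genes tested with PACT KO above and in 27.2% with PACT KO below. Summed over the 52 members, the level was 1308 to 1319 CPM in parental and 1353 to 1393 CPM in PACT KO dishes.

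**Figure D2:**
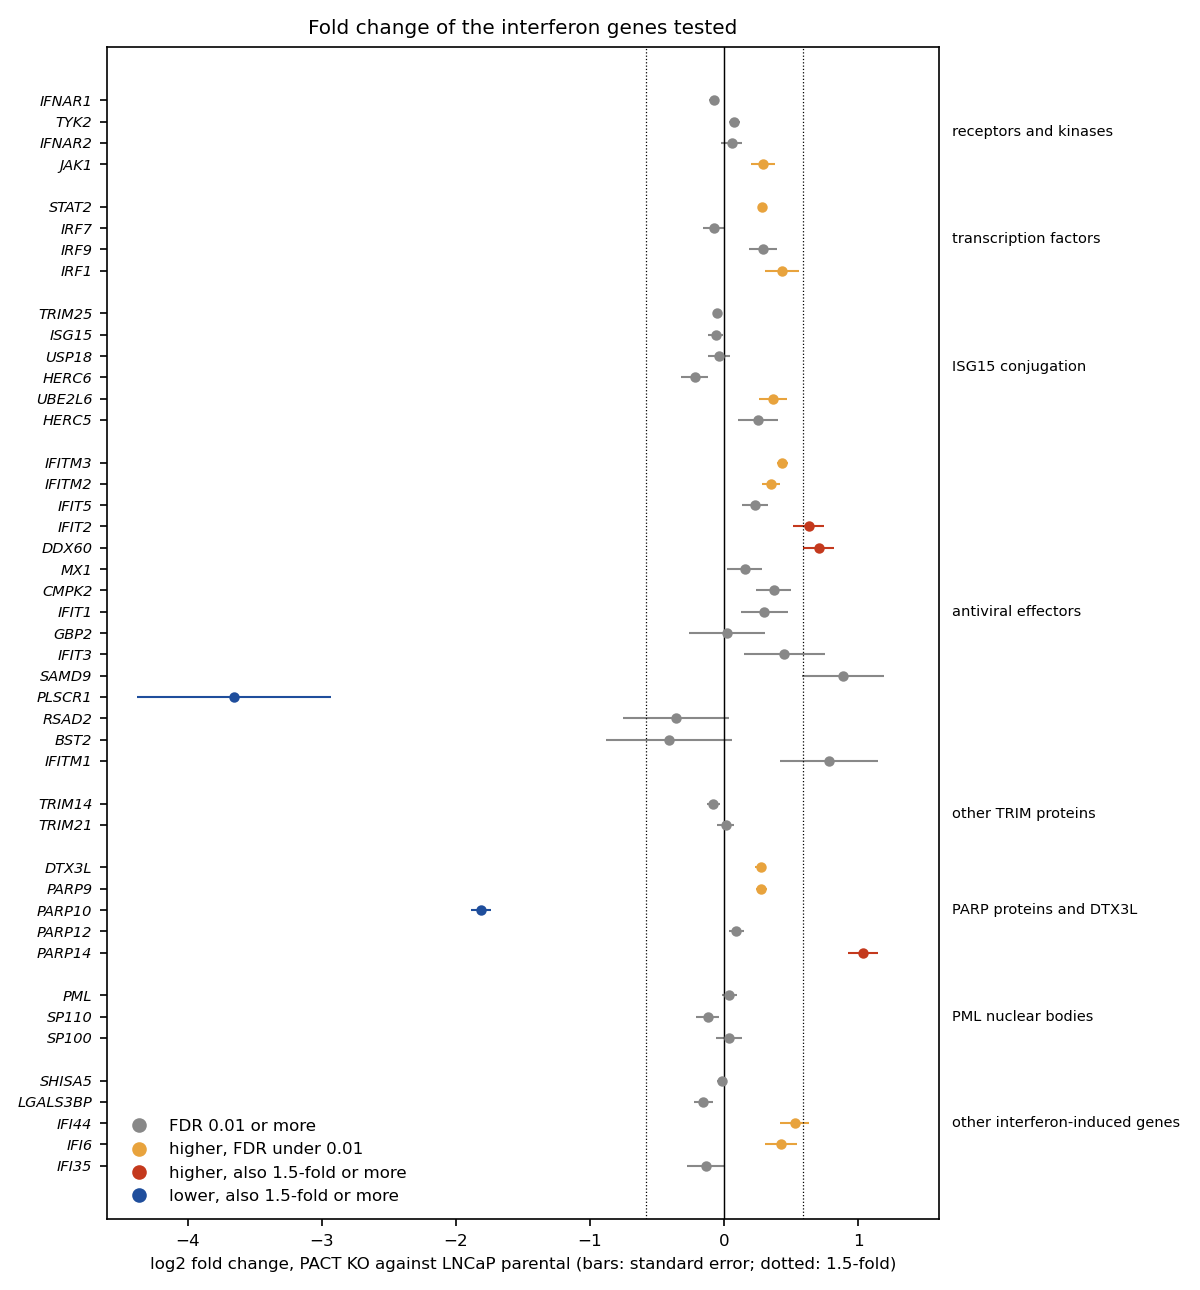
Log2 fold change of PACT KO against LNCaP parental for the 44 interferon genes tested, by role, with bars for the standard error and dotted lines at 1.5-fold. Most points lie within the dotted lines, with PARP10 (-1.81) and PLSCR1 (-3.65) far to the left and PARP14 (1.04) to the right.

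At the top of the pathway, the receptor chains did not pass the test and *JAK1* was the only 1 of the 4 receptor and kinase genes that did. *IFNAR1* had 89.6, 92.6 and 96.3 CPM in parental dishes and 89.0, 88.2 and 86.7 CPM in PACT KO dishes. *IFNAR2*, the chain with the longer cytoplasmic tail, had 15.8, 17.3 and 18.4 CPM and 17.6, 18.1 and 17.9 CPM. The PACT KO dishes were thus all just below the parental ones for *IFNAR1* and within their range for *IFNAR2*, with log2 fold changes of -0.08 ± 0.03 (FDR 0.0612) and 0.06 ± 0.08 (FDR 0.583) in edgeR's quasi-likelihood test. *JAK1*, the kinase tied to IFNAR2, had 9.87, 10.3 and 9.73 CPM in parental dishes and 11.9, 12.4 and 12.3 CPM in PACT KO dishes. Every PACT KO dish was above every parental dish, and the log2 fold change was 0.29 ± 0.09 (FDR 0.00652, edgeR's quasi-likelihood test). That call was lost in DESeq2 and without any 1 of parental replicates 1, 2 and 3 or PACT KO replicates 2 and 3, with FDRs of 0.0106 to 0.0239. *TYK2*, the kinase tied to IFNAR1, had 90.1, 94.5 and 90.7 CPM and 99.8, 88.5 and 102 CPM. PACT KO replicate 2 was the lowest of the 6 dishes for *TYK2* and the other PACT KO dishes were the highest, and the log2 fold change of 0.08 ± 0.04 had an FDR of 0.109 in edgeR's quasi-likelihood test. Without that dish it was 0.14 (FDR 0.00106).

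Among the transcription factors, *STAT2* and *IRF1* rose and *IRF9* and *IRF7* did not pass the test. *STAT2*, the subunit particular to ISGF3, had 108, 115 and 115 CPM in parental dishes and 136, 134 and 139 CPM in PACT KO dishes. The groups stood well apart, and the log2 fold change was 0.28 ± 0.03 (FDR 2.18e-09, edgeR's quasi-likelihood test). *IRF9*, its DNA-binding partner, had 7.49, 6.43 and 6.14 CPM and 7.73, 8.18 and 8.61 CPM. The fold change of *IRF9* was of the same size, 0.29 ± 0.10, but parental replicate 1 reached almost to the PACT KO dishes and the FDR was 0.0212 in edgeR's quasi-likelihood test. Without parental replicate 1 it was 0.38 (FDR 0.00699). *IRF1*, which is induced by interferon gamma and also acts without ISGF3, had 3.52, 3.93 and 4.20 CPM in parental and 4.82, 6.09 and 4.80 CPM in PACT KO dishes. Here PACT KO replicate 2 was the highest, and the log2 fold change of 0.43 ± 0.13 had an FDR of 0.00511 in edgeR's quasi-likelihood test. The call for *IRF1* was lost in DESeq2, in limma-voom and without parental replicate 1, parental replicate 2 or PACT KO replicate 2, with FDRs of 0.0121 to 0.0704 and, without PACT KO replicate 2, a log2 fold change of 0.30. *IRF7*, which amplifies the production of interferon, had 14.3, 14.2 and 14.9 CPM and 14.3, 12.5 and 14.3 CPM, and the groups overlapped.

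**Figure D3:**
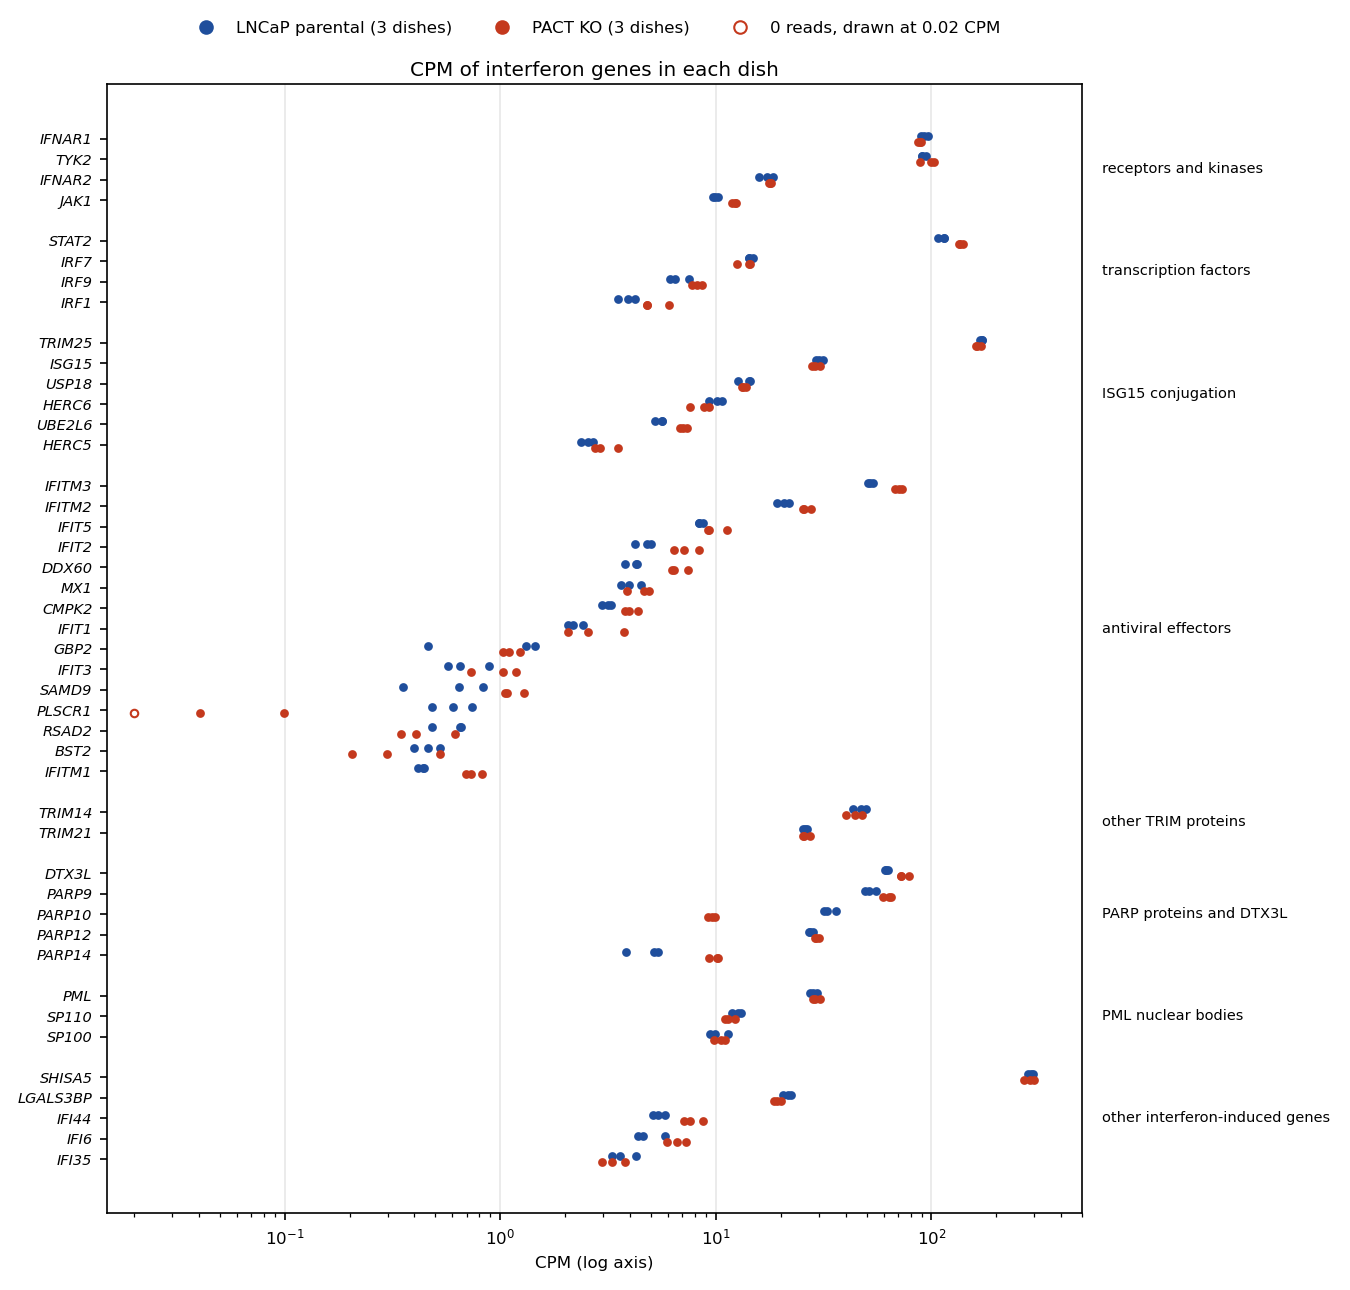
CPM on a log axis for the 44 interferon genes tested, by role, with 1 point for each dish of LNCaP parental (blue) and PACT KO (red) cells and an open point for 0 reads. The blue and red points of JAK1, STAT2, IFITM3, PARP14 and PARP10 are separate, whereas those of ISG15, MX1 and PML overlap.

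The ubiquitin-like protein ISG15 and the enzymes that attach it to targets or remove it held 1 call among 6 members. *UBE2L6*, the conjugating enzyme, had 5.24, 5.60 and 5.65 CPM in parental dishes and 7.33, 7.07 and 6.83 CPM in PACT KO dishes. All PACT KO dishes were above all parental dishes, with a log2 fold change of 0.37 ± 0.11 (FDR 0.00445, edgeR's quasi-likelihood test). The call was lost in DESeq2 and without parental replicate 1 or PACT KO replicate 1, with FDRs of 0.0199 to 0.0318. *TRIM25*, a ligase that modifies RIG-I and the most abundant of the group by reads, had 172, 172 and 169 CPM and 163, 169.7 and 161 CPM. Those ranges overlapped, at a log2 fold change of -0.05 ± 0.03. The others did not pass the test either, at -0.06 for *ISG15* itself, 0.26 for the ligase *HERC5*, -0.22 for the related *HERC6* and -0.04 for *USP18*, which removes ISG15 and restrains signalling at the receptor. The median log2 fold change of the 6 was -0.05.

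The antiviral effectors were the largest group, with 17 members, of which 15 were tested, 4 rose and 1 fell. Their median log2 fold change was 0.35, and 12 of the 15 fitted values were above 0. *IFITM3* had 53.8, 51.0 and 51.6 CPM in parental dishes and 67.8, 73.1 and 70.6 CPM in PACT KO dishes. This was a clear separation, at a log2 fold change of 0.43 ± 0.04 (FDR 9.35e-12, edgeR's quasi-likelihood test). *IFITM2*, its neighbour and close paralog, had 21.8, 19.1 and 20.8 CPM and 25.5, 27.6 and 25.3 CPM, a log2 fold change of 0.35 ± 0.07 (FDR 4.79e-05, edgeR's quasi-likelihood test). *IFITM1*, which acts at the cell surface, was read only 10, 9 and 11 times in parental and 18, 20 and 14 times in PACT KO dishes, and its log2 fold change of 0.78 ± 0.36 did not pass (FDR 0.0767, edgeR's quasi-likelihood test). The IFITM genes are close paralogs, and reads could have been split between them in counting.

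*DDX60*, a helicase linked to RNA sensing, had 86, 93 and 105 reads in parental dishes and 158, 181 and 126 reads in PACT KO dishes, or 3.79, 4.30 and 4.24 CPM against 6.39, 7.44 and 6.23 CPM. Levels in all PACT KO dishes exceeded those in all parental dishes, and the log2 fold change was 0.71 ± 0.12 (FDR 4.17e-06, edgeR's quasi-likelihood test). The adjacent paralog *DDX60L*, not a member and looked up for its position, had 16, 33 and 28 reads against 53, 53 and 32 and a log2 fold change of 0.83 ± 0.23 (FDR 0.00287, edgeR's quasi-likelihood test). Reads could be shared between this pair. The next genes tested on that side, looked up likewise, had log2 fold changes of 0.18 for *PALLD*, 0.27 for *CBR4*, 0.42 for *SH3RF1* and 0.22 for *NEK1*, all called higher. On the other side the nearest tested gene, *TLL1*, was lower at -2.35.

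*IFIT2*, whose product binds viral RNA and slows translation, had 4.23, 4.81 and 5.01 CPM in parental dishes and 7.12, 6.41 and 8.31 CPM in PACT KO dishes. PACT KO replicate 3 was the highest, and the log2 fold change was 0.63 ± 0.12 (FDR 2.37e-05, edgeR's quasi-likelihood test). Its fold of 1.55 lay near the limit for a DEG, and it fell under that limit without parental replicate 1 or PACT KO replicate 3, at log2 fold changes of 0.56 and 0.54. The other 3 members of the cluster on chromosome 10 did not pass the test. Their log2 fold changes were 0.45 ± 0.30 for *IFIT3*, 0.30 ± 0.18 for *IFIT1* and 0.23 ± 0.10 for *IFIT5*. All 4 fitted values of the IFIT family were thus positive, with 47 to 76 reads a dish for *IFIT1* and 13 to 25 for *IFIT3*. For *IFIT1*, PACT KO replicate 3 had the most reads, and the log2 fold change was 0.05 without it and 0.48 without PACT KO replicate 2. For *IFIT5* it was 0.13 without PACT KO replicate 1. Reads of IFIT genes may also be split between paralogs.

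*PLSCR1*, a phospholipid scramblase that restricts virus entry, was the effector that fell. It had 11, 16 and 15 reads in parental dishes and 1, 0 and 2 in PACT KO dishes. The groups did not overlap, and the ratio of the summed reads, scaled for library size, was 14.03 (95% exact conditional binomial interval 4.48 to 70.8, counting error only). The fitted log2 fold change of -3.65 ± 0.72 (FDR 6.43e-05, edgeR's quasi-likelihood test) depends on the prior count at such levels. At a mean of 0.61 CPM in parental cells it was also among the least expressed members, and a filter of 1 CPM in 3 libraries left it untested.

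Of the remaining effectors none passed the test. *CMPK2*, a mitochondrial nucleotide kinase, had a log2 fold change of 0.37 ± 0.13 (FDR 0.0205, edgeR's quasi-likelihood test), and *SAMD9*, which restricts poxviruses, 0.89 ± 0.31 (FDR 0.0171, edgeR's quasi-likelihood test). Both had all PACT KO dishes above all parental dishes. The dynamin-like GTPase *MX1* was at 0.15 ± 0.13, the guanylate-binding protein *GBP2* at 0.02 ± 0.29, the tetherin gene *BST2* at -0.41 ± 0.47 and the viperin gene *RSAD2* at -0.36 ± 0.39, all with overlapping groups. *RSAD2* and *CMPK2* overlap on chromosome 2 and their reads may not be told apart where they do, since the use of strand in counting is not given in the sources used here. For *GBP2*, parental replicate 2 had 10 reads where the other parental dishes had 30 and 36, and without it the log2 fold change was -0.32. *MX2* and *SAMD9L*, paralogs of *MX1* and *SAMD9*, were not tested.

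The PARP proteins and *DTX3L* held the largest rise and the fall with the smallest p of all members, and 4 of their 5 genes passed the test. *PARP14*, a mono-ADP-ribosyltransferase, had 87, 117 and 128 reads in parental dishes and 249, 249 and 187 reads in PACT KO dishes. Scaled to library size these were 3.83, 5.41 and 5.17 CPM against 10.1, 10.2 and 9.25 CPM. The groups were far apart, and the level in PACT KO cells was 2.05-fold higher, at a log2 fold change of 1.04 ± 0.11 (FDR 6.69e-10, edgeR's quasi-likelihood test). *PARP10*, another mono-ADP-ribosyltransferase, had 721, 705 and 893 reads in parental dishes and 227, 240 and 193 reads in PACT KO dishes. This was 31.8, 32.6 and 36.1 CPM against 9.19, 9.87 and 9.55 CPM, again with no overlap. Its log2 fold change was -1.81 ± 0.07 (FDR 1.35e-21, edgeR's quasi-likelihood test), and the value lay between -1.85 and -1.75 in every alternative run.

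*PARP9* and *DTX3L*, whose products form a ubiquitin ligase together, lie head to head on chromosome 3 and share the ISRE copy printed above. Along the strand of each gene, the copy began 41 bases before 1 of the 2 starts of *PARP9* and 6 bases before that of *DTX3L*. Its 10 letters ran across the start of *DTX3L*. *PARP9* had 49.0, 51.1 and 55.1 CPM in parental dishes and 63.7, 64.9 and 59.5 CPM in PACT KO dishes. *DTX3L* had 61.8, 60.9 and 62.9 CPM and 72.5, 79.0 and 72.4 CPM. Both pairs of groups were apart, with log2 fold changes of 0.28 ± 0.04 for *PARP9* (FDR 1.29e-06) and 0.27 ± 0.04 for *DTX3L* (FDR 2.88e-07) in edgeR's quasi-likelihood test. The 2 genes overlap in the annotation, and whether reads of the overlap were counted for 1 or for both is not given in the sources used here. *PARP12*, which responds to viral RNA, was not called at 0.09 ± 0.06. *PARP14* lies in the same stretch of chromosome 3, and the tested genes on its other side were looked up after its value was seen. Their log2 fold changes were 0.23 for *HSPBAP1*, 0.16 for *SLC49A4*, 0.48 for *LINC02035* and 0.19 for *PDIA5*. Of these, *LINC02035* and *PDIA5* were called higher, and *HSPBAP1* and *SLC49A4* were not called. *KPNA1*, next to *PARP9*, was at -0.08 and not called. Around *PARP10*, looked up likewise, the nearest tested genes were at -0.09 for *PLEC* and -0.10 for *GRINA*, with *EPPK1* one gene further at -0.66. Farther out were *OPLAH* at -0.19, *EXOSC4* at -0.27 and *PUF60* at -0.24. All of these were called lower, whereas *NRBP2*, at 0.0054, was not called.

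**Figure D4:**
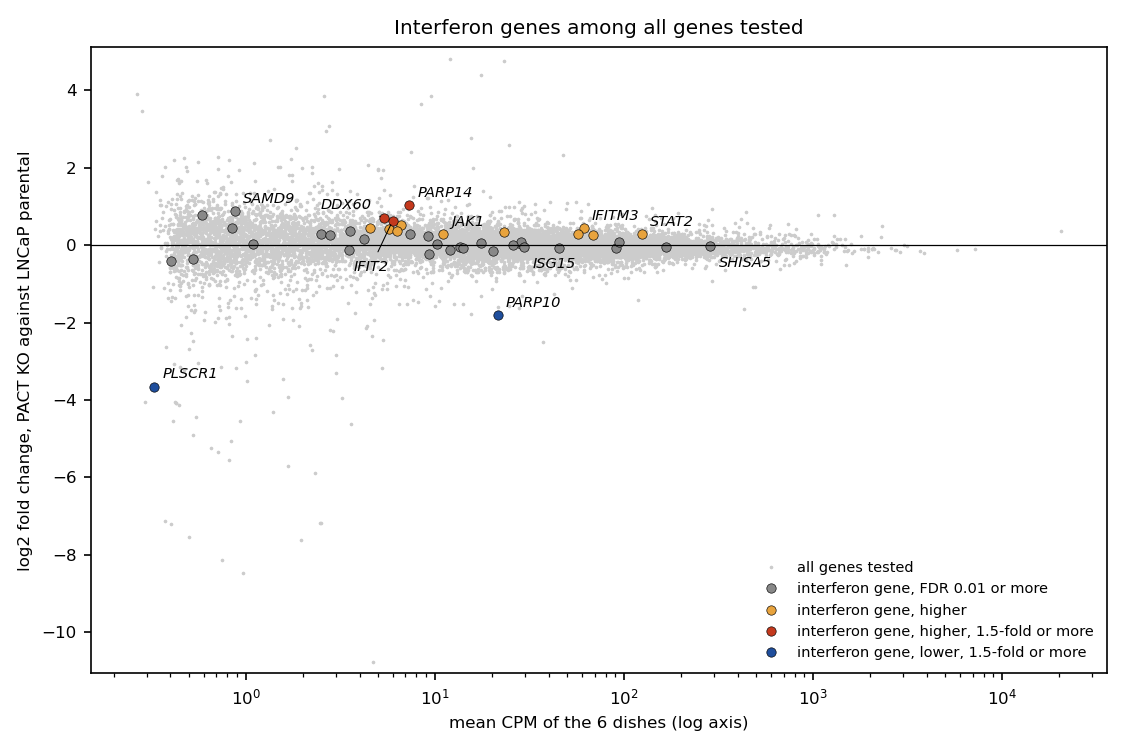
Log2 fold change of PACT KO against LNCaP parental plotted against the mean CPM of the 6 dishes (log axis) for all 14462 genes tested (grey) and the 44 interferon genes among them (coloured by call). The interferon genes spread over the whole range of levels, with PARP10 and PLSCR1 below the grey cloud's centre and PARP14, DDX60 and IFIT2 above it.

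Proteins of other kinds showed few calls. Of the TRIM proteins outside ISG15 conjugation, *TRIM14*, an adaptor at MAVS, had 46.9, 43.3 and 49.7 CPM in parental and 44.4, 47.7 and 40.1 CPM in PACT KO dishes, which overlap. *TRIM21*, the receptor for antibody inside cells, was at a log2 fold change of 0.01 ± 0.06, and *TRIM22*, a restriction factor of retroviruses, was not tested, with at most 15 reads in a dish. None of the 3 proteins of PML nuclear bodies, sites in the nucleus that hold back viral DNA, passed the test. *PML* itself had 27.4, 28.1 and 29.3 CPM and 28.2, 28.7 and 30.4 CPM, with *SP100* at 0.04 ± 0.09 and *SP110* at -0.12 ± 0.09.

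Of the 10 other interferon-induced genes 5 were tested, and *IFI44* and *IFI6* rose. *IFI44*, a cytoplasmic protein of uncertain function, had 5.37, 5.83 and 5.13 CPM in parental dishes and 8.74, 7.11 and 7.62 CPM in PACT KO dishes, with no overlap. Its log2 fold change was 0.53 ± 0.11 (FDR 0.000115, edgeR's quasi-likelihood test). *IFI6*, a small membrane protein that limits virus replication, had 5.81, 4.58 and 4.36 CPM and 5.95, 7.24 and 6.58 CPM, so that parental replicate 1 came close to the lowest PACT KO dish. At 0.42 ± 0.12 its FDR was 0.0036 in edgeR's quasi-likelihood test, and the call was lost in DESeq2 and without parental replicate 2, parental replicate 3 or PACT KO replicate 2, with FDRs of 0.0214 to 0.0325. *SHISA5* had 295, 289 and 281 CPM and 268, 299 and 286 CPM, with the groups overlapping. *LGALS3BP*, a secreted galectin ligand, was at -0.15 ± 0.07 and *IFI35* at -0.14 ± 0.14. Not tested were *IFI27*, a mitochondrial protein with at most 11 reads, *IFI44L*, a relative of *IFI44*, *NMI*, the partner of IFI35, *XAF1*, which favours apoptosis, and *EPSTI1*, for which parental replicate 1 had 10 reads and parental replicate 2 had 0.

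The level of a member set how small a change could be seen. The median standard error of the log2 fold change was 0.38 for the 6 tested members with a mean under 1 CPM, 0.12 for the 16 members between 1 and 10 CPM and 0.06 for the 22 members over 10 CPM. The calls in these classes were 1 lower and 0 higher, then 0 lower and 7 higher, then 1 lower and 6 higher. A change of the size seen for *JAK1* or *STAT2* was therefore not detectable for *RSAD2*, *BST2*, *IFITM1* or *IFIT3* at this depth.

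Several members lie close together. Within 100000 bases of another member lay 21 members, in 9 clusters. On chromosome 11, *IFITM2* and *IFITM3* rose while *IFITM1*, between them, had the larger fitted value at far fewer reads and did not pass. On chromosome 1, *IFI44* rose and *IFI44L* next to it was hardly read. The tested members with ISRE letters in a promoter numbered 23, of which 7 rose, 1 fell and 15 did not pass. Their median log2 fold change was 0.26. Of the 13 with a promoter entry but no such letters, 4 rose, 0 fell and 9 did not pass, at a median of 0.08. The shares that rose were thus close to each other, and whether the medians differ was not tested. Over all genes tested, 15.3% were called higher and 18.8% lower. Tested members without a promoter entry, *PARP10*, *IFIT2* and *IFITM2* among them, are in neither set. *STAT2*, *JAK1*, *IRF1* and *UBE2L6* are the 4 that rose without the letters.

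The other genes of the pathway were counted by list. Of 21 interferon genes (the alpha, beta, gamma, lambda and related ligands), 20 had 0 reads in all 6 dishes and *IFNL3* had at most 1, so transcripts of the ligands were not detectable at this depth. A count of 0 in a library still allows up to 3 reads, or 0.12 to 0.151 CPM. Of 18 other receptors, kinases, STATs and IRFs, 13 were tested, 4 rose and 2 fell. *STAT5A*, best known for its role downstream of cytokine and growth hormone receptors, had 53, 31 and 40 reads against 1, 3 and 1, a ratio of 24.9 (95% interval 10.4 to 77.9, counting error only). *JAK2* and *IFNGR2*, which serve the interferon gamma receptor, rose by 0.22 and 0.17 on the log2 scale. The other 2 that rose, named after their values were seen, were *STAT6* at 0.71 and *IL10RB* at 0.29. Both calls were lost in DESeq2 and without parental replicate 1, and that of *IL10RB* also without parental replicate 3 or PACT KO replicate 2.

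Among 11 negative regulators of JAK-STAT signalling, all of them tested, *SOCS3*, an inhibitor of the receptor kinases, rose from 16, 14 and 11 reads to 40, 35 and 30 reads, a log2 fold change of 1.34 ± 0.27 (FDR 8.49e-05, edgeR's quasi-likelihood test). *PIAS1* and *PIAS2*, which restrain STAT factors, rose by 0.29 and 0.13, and the phosphatase gene *PTPN11* fell by 0.11. The FDR of *PIAS2*, 0.00987 in edgeR's quasi-likelihood test, rose above 0.01 in DESeq2, in limma-voom and without any 1 of the parental replicates or PACT KO replicates 1 and 2. That of *PTPN11* did so with library totals alone, with upper-quartile scaling and without parental replicate 2 or PACT KO replicate 3. Among 19 genes for the sensing of foreign nucleic acid, 16 were tested, 3 rose and 1 fell. *RIGI*, the RNA sensor, had 300, 292 and 341 reads against 481, 500 and 411, a log2 fold change of 0.58 ± 0.08 (FDR 6.37e-08, edgeR's quasi-likelihood test). *EIF2AK2*, which encodes PKR, rose by 0.24, a call lost without parental replicate 1, parental replicate 2 or PACT KO replicate 1. *OAS3*, an oligoadenylate synthetase, fell from 505, 504 and 541 reads to 352, 358 and 280 reads, a log2 fold change of -0.65 ± 0.07 (FDR 1.85e-09, edgeR's quasi-likelihood test). In each of these lists genes moved in both directions, and the medians were 0.04, 0.04 and -0.02. In the same order, 30.8%, 27.3% and 18.75% of the tested genes were called higher. Those called lower were 15.4%, 9.09% and 6.25%. Over all genes tested the shares were 15.3% higher and 18.8% lower, so changes in both directions are not particular to these lists.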

How the data were processed

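The authors deposited whole-number read counts per NCBI Gene number, not normalized, for 6 libraries; CPM were computed from them with the TMM factors. The submitters' processing notes name bcl2fastq 2.20.0.422, STAR 2.5.3a, StringTie 1.3.3, featureCounts 1.5.3 and hg38; which annotation was counted, and whether by strand, is not given in the sources used here. A row with no gene number (0.0688% to 0.0708% of counts) was left out. Symbols came from RefSeq (GRCh38.p14) for 27540 of 29806 gene numbers.

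Genes were kept by filterByExpr, scaled by TMM and compared with glmQLFit and glmQLFTest in edgeR 4.0.16 (R 4.3.3), 2-sided, with Benjamini-Hochberg adjustment over all 14462 genes tested (FDR) and group as the only term. The standard error is the log2 fold change divided by the square root of F, without sign. The fit was tested on simulated data first. Alternatives were DESeq2 1.42.0, limma-voom (limma 3.58.1), other scalings and filters, glmTreat, the replicate number as a block, and each library left out.

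Values by dish are given for all receptors, kinases and transcription factors, every DEG, and in each other role group the 3 called members with the smallest p and the member with the highest mean CPM. Other lists give at most 4 called genes by p, and results for a few genes of these lists are not reported here. The members and lists were chosen with earlier results of these data known. Counts of replicates differed by more than sampling noise, with a chi-square per gene of 1.56 to 1.93 between parental and 2.02 to 3.63 between PACT KO dishes, where noise alone would give 1. Intervals cover counting error only. The authors' siRNA and protein experiments were not analysed here.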

Additional observations from a re-analysis of the deposited data

How the results depend on the processing

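Of 611 alternative values for single members, 582 kept their direction and side of the threshold, 18 lost the call, 2 gained it and 9 changed sign, none of the last a called value. The changes of sign were *SHISA5* with library totals alone (0.0106) and with upper-quartile scaling (0.0052), and, among the fits that left out 1 library, *SHISA5* without PACT KO replicate 1 (range of the 6 fits -0.0579 to 0.0268), *IFNAR2* without parental replicate 1 (-0.0011 to 0.11), *GBP2* without parental replicate 2 or PACT KO replicate 3 (-0.32 to 0.31), *SP100* without parental replicate 2 (-0.0200 to 0.12) and *TRIM21* without parental replicate 3 or PACT KO replicate 3 (-0.0140 to 0.0306). A filter of at least 1 CPM in 3 libraries gave 1 member lower and 1 DEG lower, since *PLSCR1* was not tested, and glmTreat against 1.5-fold gave 1 DEG higher, *PARP14*. DESeq2 called 11 members, all among the 15, and 2 other receptors, kinases, STATs and IRFs as higher. With library totals alone or upper-quartile scaling, 0 negative regulators were lower; the cause was not tested. Leaving out the libraries one at a time, 10 to 12 members rose and 2 fell, 2 to 4 were DEG higher (4 without PACT KO replicate 2, where *IFI44* passed 1.5-fold) and 2 DEG lower, and the median was 0.0803 to 0.18. In the other lists, 3 to 5 receptors, kinases, STATs and IRFs rose, 2 to 3 negative regulators rose and 0 to 1 fell, 2 to 3 sensing genes rose and 1 to 2 fell. *PRKRA* lay between -1.64 and -1.52 in all alternatives. The replicate numbers are shared only in name: deviations of same-numbered dishes correlated at -0.094, 0.0029 and -0.086. With the replicate number as a block, 13 members rose and 2 fell, 3 and 2 of them as DEGs, and all 15 calls were shared, while *PIAS2* lost its call (FDR 0.0199), with 2139 genes higher and 2631 lower overall. With a floor of 10 reads in place of 3, 43 members were detected. Other scalings moved the median of all genes by at most 0.03. Depth limits the members under 1 CPM.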
